A study of Mus musculus with 11 samples.

Results

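A sharp edge in the contact maps of mouse chromosome 1 lies at position 122470001, directly beside the bins that hold the gene En1. The contacts described here are those that cross this edge. They are the bin pairs of the 10 kb maps with 1 bin among the 56 that start from 121910001 to 122460001, called the left side, and the other among the 57 that start from 122510001 to 123070001, called the En1 side. The 4 bins from 122470001 to 122510000, which hold En1, were left out. This gives 3192 of the 88410 bin pairs of a map, between 50 kb and 1160 kb apart.

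Chromosomes are folded into topologically associating domains, within which loci touch each other often, and boundaries between domains lower the contact frequency between the flanking sequences. A boundary of this kind insulates a gene from regulatory elements beyond it, but the insulation is seldom complete, and the contacts that still cross are often called leakage. En1 encodes the homeobox transcription factor Engrailed-1, which patterns the ventral limb ectoderm and the midbrain-hindbrain junction, and the title of the study links its activity in the limb to the long non-coding RNA Maenli. In the RefSeq gene order, Marco, a scavenger receptor of macrophages, C1ql2, a secreted C1q-like protein of synapses, and Steap3, a ferrireductase, precede En1 on the left. Insig2, an endoplasmic reticulum protein of sterol sensing, is the next protein-coding gene on the other side, with 9 annotated long non-coding RNAs in between. That table is for assembly GRCm38 and was used only for the order of genes. The maps are in the coordinates of the files, and mm9 is the build that the submitters' processing notes name.

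Capture Hi-C, in which crosslinked chromatin is cut, religated and enriched with baits for a chosen region, was performed on tissue of mouse embryos at embryonic day 9.5. The 4 groups were wild-type forelimb (3 libraries), wild-type forebrain (3 libraries), wild-type midhindbrain boundary (3 libraries) and forelimb of mutants with the genotype "Mutant (Stop Cassette Insertion)" (2 libraries, with 3xpA in their titles, called mutant or stop-cassette forelimb below). All 11 libraries carry the strain entry c57bl6.J X 129S6.sv. Titles of wild-type forelimb samples also bear a CD1 tag, and their library numbers lie apart from those of the other 8. Strain tag and library series therefore cannot be told apart from tissue or genotype in any comparison with the wild-type forelimb. The position of the cassette and its zygosity are not in the labels. Forelimb and brain pieces are mixtures of cell types, and the share of cells with a contact cannot be told apart from its frequency per cell.

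Each group was deposited as 1 map in which its libraries are merged, so no spread between embryos or libraries could be measured. Intervals below cover counting error only, take read pairs as independent, and a test compares the reads of 2 maps and not the conditions. The raw maps held 7662227 to 9523316 contacts. At the distances of the crossing bin pairs, they held 4358836 contacts in wild-type forelimb, 3265486 in mutant forelimb, 4284601 in wild-type forebrain and 4224410 in wild-type midhindbrain boundary. No crossing bin pair was empty in any map. The median raw count of a crossing bin pair was 60 in wild-type forelimb, 44 in mutant forelimb, 60 in wild-type forebrain and 55 in wild-type midhindbrain boundary.

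Fewer contacts crossed the edge than an average place of the map would give, but most of the loss was at short range. Crossing bin pairs made up 7.93% of the bin pairs at their distances. They held 5.10% of the raw contacts there (Wilson 95% interval 5.08 to 5.12) in wild-type forelimb, 5.02% in mutant forelimb (5.00 to 5.05), 5.20% in wild-type forebrain (5.18 to 5.23) and 4.92% in wild-type midhindbrain boundary (4.90 to 4.94). To remove the effect of distance, the Knight-Ruiz (KR) balanced signal of the crossing pairs was summed and divided by the sum of the mean KR signal of the map at the same distances. The result is called the crossing level, and a level of 1 is the average of that map. The crossing level was 0.767 in wild-type forelimb (95% interval 0.763 to 0.770), 0.742 in mutant forelimb (0.738 to 0.746), 0.801 in wild-type forebrain (0.797 to 0.804) and 0.761 in wild-type midhindbrain boundary (0.757 to 0.764). By comparison, bin pairs inside the left side had levels of 1.08 to 1.10, and those inside the En1 side 1.13 to 1.18. The members were chosen by position around an edge that was itself found from low crossing signal in these maps, so these levels describe the choice and were not tested.

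The level rose with distance in all 4 maps. In wild-type forelimb it was 0.491 for the 21 pairs 50 to 100 kb apart, 0.462 for the 115 pairs at 110 to 200 kb, 0.573 for the 530 pairs at 210 to 400 kb, 0.847 for the 1445 pairs at 410 to 700 kb and 1.11 for the 1081 pairs at 710 to 1160 kb. In mutant forelimb the levels in the same order were 0.544, 0.525, 0.597, 0.803 and 0.976. Forebrain had 0.539, 0.540, 0.670, 0.858 and 1.08, and midhindbrain boundary had 0.476, 0.509, 0.636, 0.825 and 1.00. The counting SD was at most 0.010 for any of these values. The longest band exceeded the shortest by a factor of 2.25 in wild-type forelimb, 1.79 in mutant forelimb, 2.01 in forebrain and 2.10 in midhindbrain boundary. Contacts up to 200 kb apart were thus the most reduced, and the band at 710 to 1160 kb lay near the average of the map. Each band joins unlike positions. The 18 outermost left bins (121910001 to 122090000) had levels of only 0.741 to 0.797 with the middle 19 En1-side bins (122700001 to 122890000) over the 4 maps.

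**Figure D1:**
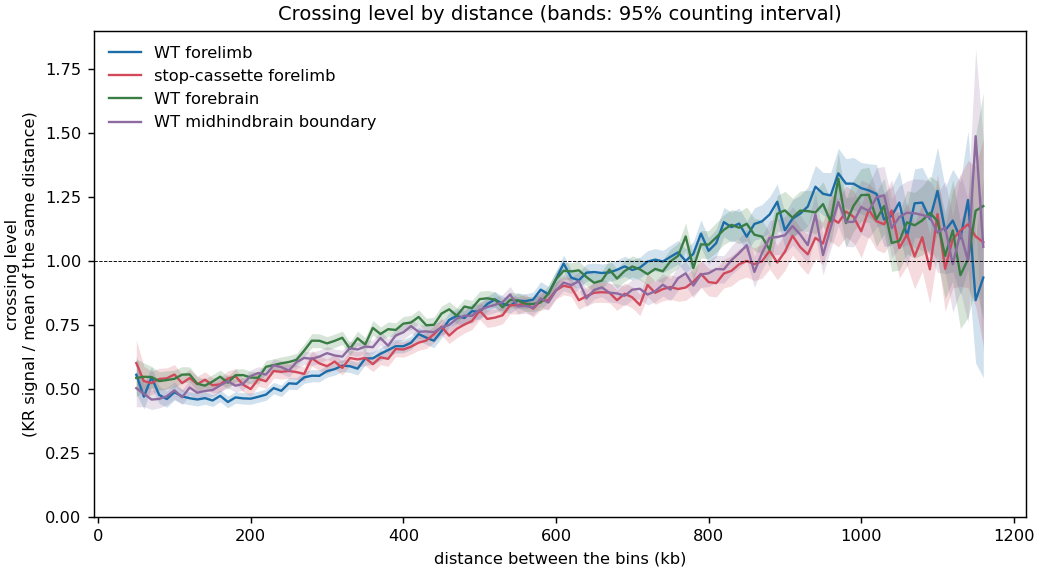
Crossing level (KR signal over the mean of the map at the same distance, y axis) against the distance between the bins in kb (x axis), 1 line per map, with the shaded 95% counting interval and a dashed line at 1. The lines start near 0.5, climb from about 200 kb, and in wild-type forelimb and forebrain reach 1 at shorter distances than in the other maps.

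The distance at which crossing contacts reached the map average differed among maps. Over windows of 5 neighbouring distances, the level first reached 1 at 720 to 760 kb in wild-type forelimb, at 730 to 770 kb in forebrain, at 810 to 850 kb in midhindbrain boundary and at 840 to 880 kb in mutant forelimb. The lowest window lay at 130 to 170 kb in wild-type forelimb, with a level of 0.460, and at the same distances in forebrain, with 0.527. It lay at 160 to 200 kb in mutant forelimb, with 0.524, and at 50 to 90 kb in midhindbrain boundary, with 0.470. No interval was computed for the place of these windows, so close ones cannot be ranked. In wild-type forelimb, for example, single distances from 80 to 220 kb all had levels of 0.449 to 0.487.

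Rectangles of the same shape and size were placed on either side with the same gap, without locating an edge there. They showed a weaker rise or none. Between the En1 side and the interval to its right, the longest band exceeded the shortest by a factor of 1.37 to 1.67 over the 4 maps. Between the left side and the interval to its left, the longest band was at 0.655 to 0.969 of the shortest. At 110 to 200 kb, the level of those rectangles was 0.599 to 0.709 on the right and 0.825 to 0.876 on the left, and the crossing pairs lay below both in every map. Since the edge was found from low crossing signal in these maps, this order describes the choice and was not tested. At 710 to 1160 kb the order was turned in each wild-type map, where the crossing pairs lay above both rectangles. In mutant forelimb the crossing level of 0.976 and that of the right rectangle, 0.973, had overlapping intervals.

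Position mattered more on the En1 side than on the left. In wild-type forelimb, the level of a bin with the whole opposite side was 0.525 over the first 10 bins of the En1 side (122510001 to 122610000), 0.584 over the next 10, then 0.710, 0.877 and 1.21, and 1.64 over the last 7 (123010001 to 123080000). Mutant forelimb went from 0.572 to 1.44 over the same runs, forebrain from 0.571 to 1.53 and midhindbrain boundary from 0.523 to 1.41. Over the 57 bins, Pearson's correlation of level with distance from the edge was 0.92 in wild-type forelimb, 0.89 in mutant forelimb, 0.90 in forebrain and 0.90 in midhindbrain boundary. Over the 56 left bins it was 0.28, 0.21, -0.02 and 0.11. These correlations are descriptions, since neighbouring bins share a library, their partners and the balancing.

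**Figure D2:**
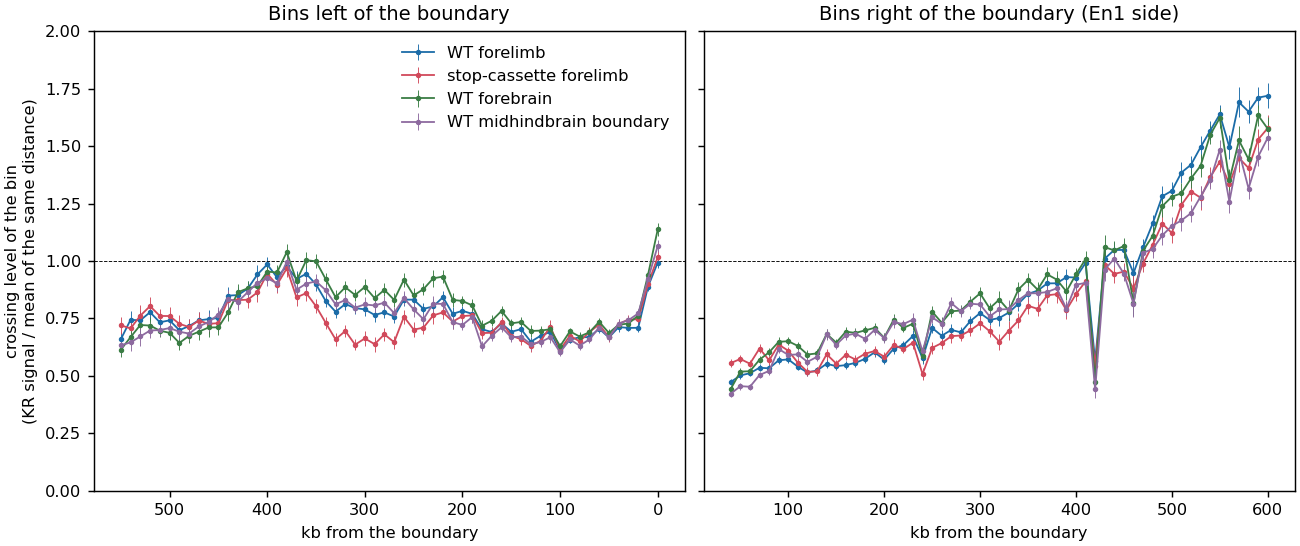
Crossing level of each 10 kb bin with the whole opposite side (y axis) against its distance from the edge in kb (x axis), left side in the left panel and En1 side in the right panel, 1 line per map, bars as 95% counting intervals. Levels on the En1 side climb from about 0.5 to above 1.5, while those on the left stay between 0.602 and 1.14.

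The rise along the En1 side was also present within a window of distances, in which the left bins change with the class. Among pairs 410 to 600 kb apart, those with the 19 En1-side bins nearest the edge had a level of 0.639 in wild-type forelimb, those with the middle 19 had 0.764 and those with the outermost 19 had 1.28. The same comparison gave 0.651, 0.706 and 1.24 in mutant forelimb. It gave 0.700, 0.800 and 1.17 in forebrain, and 0.699, 0.766 and 1.12 in midhindbrain boundary. The counting SD was at most 0.013. In each map the outermost class was the highest and the nearest the lowest. In this window the outermost class meets only left bins near the edge. It holds 171 pairs, more of them at the longer distances, against 380 in the nearest class and 379 in the middle one. Position on the En1 side was thus not separated from position on the left, nor fully from distance.

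The lowest cell of a grid of 3 by 3 positions was the one nearest the edge on both sides. It had a level of 0.482 in wild-type forelimb, 0.534 in mutant forelimb, 0.573 in forebrain and 0.541 in midhindbrain boundary. In contrast, the cell that joins the 19 innermost left bins with the 19 outermost En1-side bins had 1.34, 1.25, 1.21 and 1.14 in the same order. The cell farthest from the edge on both sides had 1.19, 1.08, 1.14 and 1.11. The outermost En1-side bins were above the map average with each of the 3 classes of left bins.

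**Figure D3:**
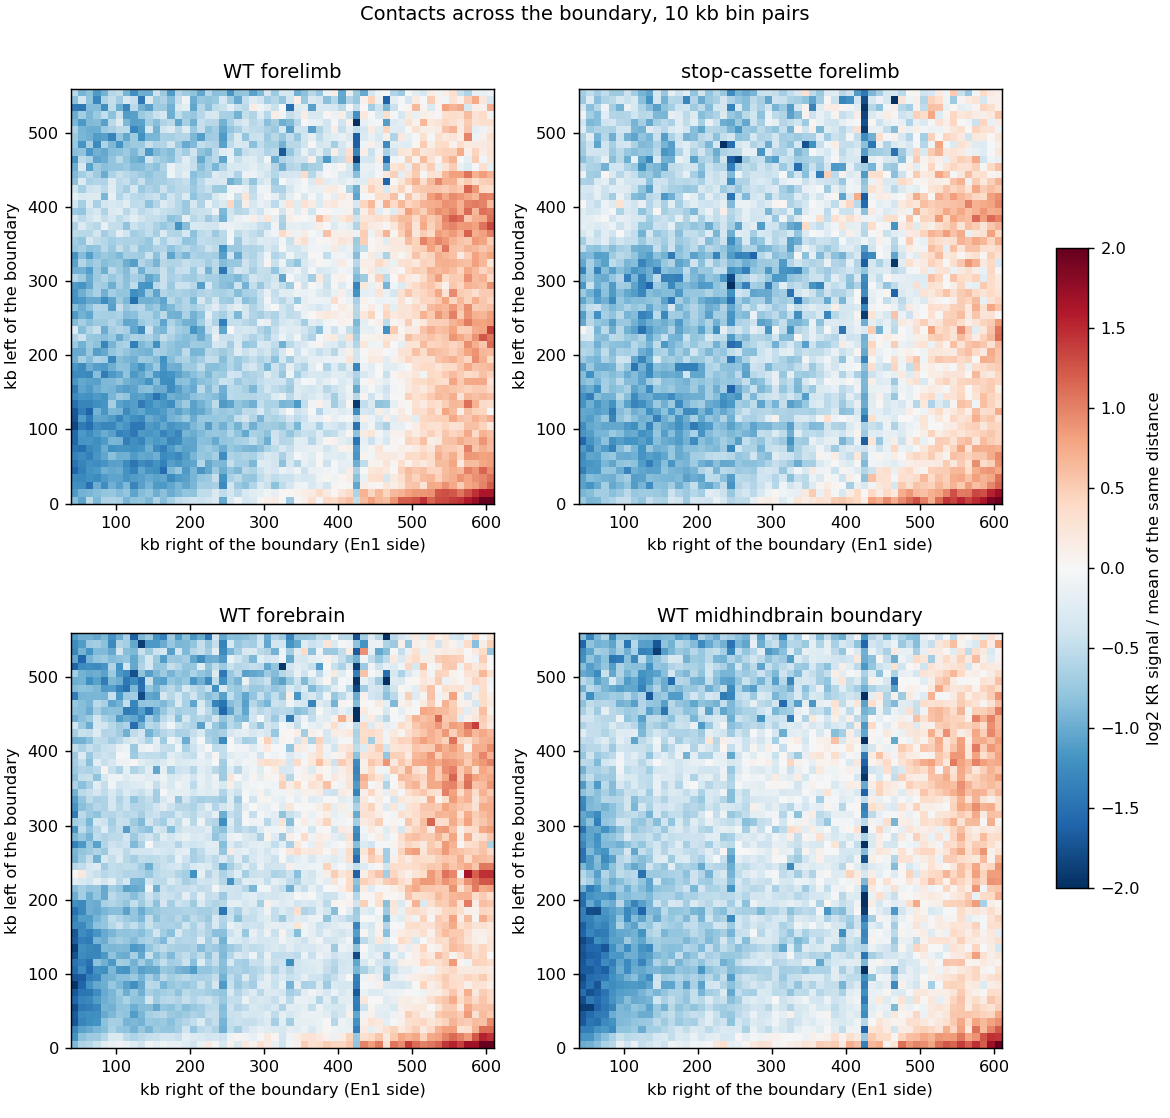
Heat maps of log2 KR signal over the mean of the same distance for the 3192 crossing bin pairs in each map, with kb from the edge on the En1 side (x axis) and on the left side (y axis), blue below and red above the mean. Blue fills the corner next to the edge, red the far En1-side columns, and the strongest red lies at the lower right, between the innermost left bins and the far end of the En1 side.

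Among the bins of the left side, the innermost had the highest level in each map, in wild-type forelimb by a margin within counting error. The bin 122460001 to 122470000 directly beside the edge had a level of 0.993 ± 0.013 (counting SD) in wild-type forelimb, 1.02 ± 0.016 in mutant forelimb, 1.14 ± 0.014 in forebrain and 1.07 ± 0.014 in midhindbrain boundary. This mean joins unlike values. With the nearest 19 En1-side bins its level was 0.613, 0.659, 0.808 and 0.749 in that order, and with the outermost 19 it was 2.37, 2.28, 2.34 and 2.01. The bins 122080001 to 122090000 and 122060001 to 122070000, 380 and 400 kb from the edge, followed by the mean over maps, with levels of 0.967 to 1.04 and 0.925 to 0.985 over the 4 maps. The lowest left bins by the mean over maps were 122360001 to 122370000, with 0.602 to 0.629, 122330001 to 122340000, with 0.630 to 0.695, and 122380001 to 122390000, with 0.632 to 0.671. These lie 80 to 130 kb from the edge. The outermost left bin, 121910001 to 121920000, was close behind. In forebrain it was the lowest of its side, with 0.613, by a margin within counting error.

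On the En1 side, the lowest bin by the mean over the 4 maps was the first one past the En1 bins, 122510001 to 122520000. Its level was 0.473 in wild-type forelimb, 0.556 in mutant forelimb, 0.443 in forebrain and 0.422 in midhindbrain boundary. It was the lowest of its side in the 3 wild-type maps. In forebrain and midhindbrain boundary its margin to 122890001 to 122900000 was within counting error. In mutant forelimb the bin 122710001 to 122720000 was lower, with 0.507, and so were 122590001 to 122600000 with 0.518 and 122600001 to 122610000 with 0.519. There 122890001 to 122900000, with 0.543, was lower by a margin within counting error. The bin 122530001 to 122540000 had 0.453 to 0.553. The bin 122890001 to 122900000, which had 0.441 to 0.564 far below its neighbours, was thinly covered, as the bin with rank 11 of 420 from the bottom by raw contacts in each map, with 575 to 827 raw crossing contacts. The highest bins by the mean over maps lay at the far end. They were 123070001 to 123080000 with 1.54 to 1.72, 123060001 to 123070000 with 1.45 to 1.71 and 123020001 to 123030000 with 1.43 to 1.64, each highest in wild-type forelimb, for 123020001 by a margin over forebrain within counting error.

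The rule cuts through gradual changes at its outer ends. The outermost left bin 121910001 to 121920000 had levels of 0.659, 0.720, 0.613 and 0.633 in wild-type forelimb, mutant forelimb, forebrain and midhindbrain boundary, and the next bin outward had 0.692, 0.758, 0.708 and 0.680. On the far right, the level went from 1.54 to 1.72 in the last bin inside to 1.64 to 2.02 in the first bin outside. The 4 En1 bins themselves had levels with the left side of 0.404 to 0.623. The bin 122500001 to 122510000 was the lowest of them, with 0.465 in wild-type forelimb, 0.534 in mutant forelimb, 0.406 in forebrain and 0.404 in midhindbrain boundary, except that in mutant forelimb the bin 122470001 to 122480000 was lower by a margin within counting error, at 0.532.

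The most enriched crossing contacts joined the edge itself to the far end of the En1 side. The pair of bins at 122460001 and 123070001, 610 kb apart, had 196 raw contacts and 4.67 times the mean of the distance in wild-type forelimb. It had 119 contacts and 3.88 times the mean in mutant forelimb, 196 and 4.59 in forebrain, and 168 and 4.12 in midhindbrain boundary. The pairs of the same left bin with 123060001, 123050001 and 123040001 and the pair of 122450001 with 123070001 came next, with means over the 4 maps of 3.84 for the first and 2.96 and 2.95 for the last 2. All 12 pairs between the last 3 left bins and the last 4 En1-side bins together had a level of 2.88 ± 0.067 in wild-type forelimb, 2.67 ± 0.073 in mutant forelimb, 2.68 ± 0.065 in forebrain and 2.52 ± 0.063 in midhindbrain boundary. They are 0.376% of the crossing pairs, and leaving them out moved the overall level by no more than 0.007, to 0.760, 0.736, 0.795 and 0.755.

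The most depleted pairs met at the first En1-side bin. The bin 122510001 had 0.310 times the mean of the distance with 122380001, 0.335 with 122420001 and 0.338 with 122410001, as means over the maps. With 122420001, 90 kb away, the values were 0.329 in wild-type forelimb (120 contacts), 0.389 in mutant forelimb (108), 0.312 in forebrain (116) and 0.310 in midhindbrain boundary (104). Most bin pairs lie below the mean of their distance. In single maps this held for 57.0 to 58.6% of all pairs at these distances and for 69.8 to 76.2% of the crossing pairs. Over all crossing pairs, 1903 lay below the mean of their distance in all 4 maps and 522 above it in all 4. The share of all pairs that do so in each map was not computed. Of the 522, 507 had their En1-side bin among the outermost 19, and none had it among the nearest 19. The 14 pairs above 2 times the mean in all maps were 530 to 630 kb apart.

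The comparison of stop-cassette with wild-type forelimb asks whether crossing contacts differ where the mutants carry the cassette. Crossing contacts of the mutant map were more frequent at short range and less frequent at long range. The log2 ratio of crossing levels, stop-cassette over wild type, was 0.18 at 110 to 200 kb (95% counting interval 0.15 to 0.22) and -0.18 at 710 to 1160 kb (-0.20 to -0.16). It was 0.15 (0.079 to 0.22) at 50 to 100 kb, 0.058 (0.038 to 0.079) at 210 to 400 kb and -0.077 (-0.091 to -0.062) at 410 to 700 kb. Over all distances these opposite shifts left a ratio of -0.046 (-0.056 to -0.036). Its direction rests on the distances and the expectation used, since it was 0.034 over 50 to 550 kb alone, 0.0995 with the expectation from bin pairs inside the flanking intervals, and -0.019 on raw counts. The ratio up to 400 kb exceeded that from 710 kb by 0.27 (0.25 to 0.30). At 110 to 200 kb wild-type forelimb had the lowest level of the maps, 0.462. Mutant forelimb, with 0.525, lay between the brain maps there. At 710 to 1160 kb mutant forelimb was the lowest, with 0.976, next to midhindbrain boundary with 1.00. The cassette cannot be told apart here from the strain tag and library series of the wild-type forelimb map.

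Counting intervals are narrow because so many contacts are summed, and neighbouring bin pairs proved to vary together. Over all 50 kb blocks of the maps, the variance of the mutant against the wild-type forelimb was 10.9 times that of counting, and it was 7.14 to 12.2 times in the other comparisons. This factor also holds any real differences. Multiplying the variance by it, a choice made after seeing the data, gives a wider interval. With it, the difference between short and long range stayed at 0.18 to 0.36, and the shifts at 110 to 200 kb (0.069 to 0.30), 410 to 700 kb (-0.13 to -0.028) and 710 to 1160 kb (-0.25 to -0.11) still left out 0, whereas those at 50 to 100 kb and 210 to 400 kb did not. Raw counts over their own distance mean gave the same sign in each of the 5 bands, with 0.13 at 110 to 200 kb and -0.093 at 710 to 1160 kb.

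By position, the mutant map was higher in the cell nearest the edge on both sides, where the log2 ratio was 0.15 (wider interval 0.077 to 0.22). It was also higher between the outermost left and the nearest En1-side bins, with 0.12 (0.013 to 0.23), although all pairs there are more than 400 kb apart. The mutant map was lower in the middle cell, with -0.25 (-0.36 to -0.13), and between the middle of the left side and the outermost En1-side bins, with -0.24 (-0.35 to -0.13). The bin with the highest ratio was 122510001 to 122520000, with 0.23, and the left bin with the lowest was 122150001 to 122160000, with -0.32. The shift at long range was not shared with the neighbouring rectangles of the same shape, which had ratios of 0.17 and 0.25 at 710 to 1160 kb on the right and left. The crossing pairs differed from them by -0.35 (wider interval -0.46 to -0.25) and -0.43 (-0.54 to -0.32). Each rectangle takes bins from 1 side of the crossing pairs, and balancing and the distance mean tie their signals. The intervals of these differences, here and below, take the sets as independent and leave out this tie. At 110 to 200 kb the crossing pairs lay above the left rectangle by 0.26 (0.11 to 0.41) and above the right one by 0.11, with a wider interval of -0.044 to 0.27 that holds 0. At 210 to 400 kb, where the crossing ratio was 0.058, the right rectangle had 0.060 and the left one 0.10. The differences there, -0.0020 and -0.047, had 0 inside the wider interval.

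**Figure D4:**
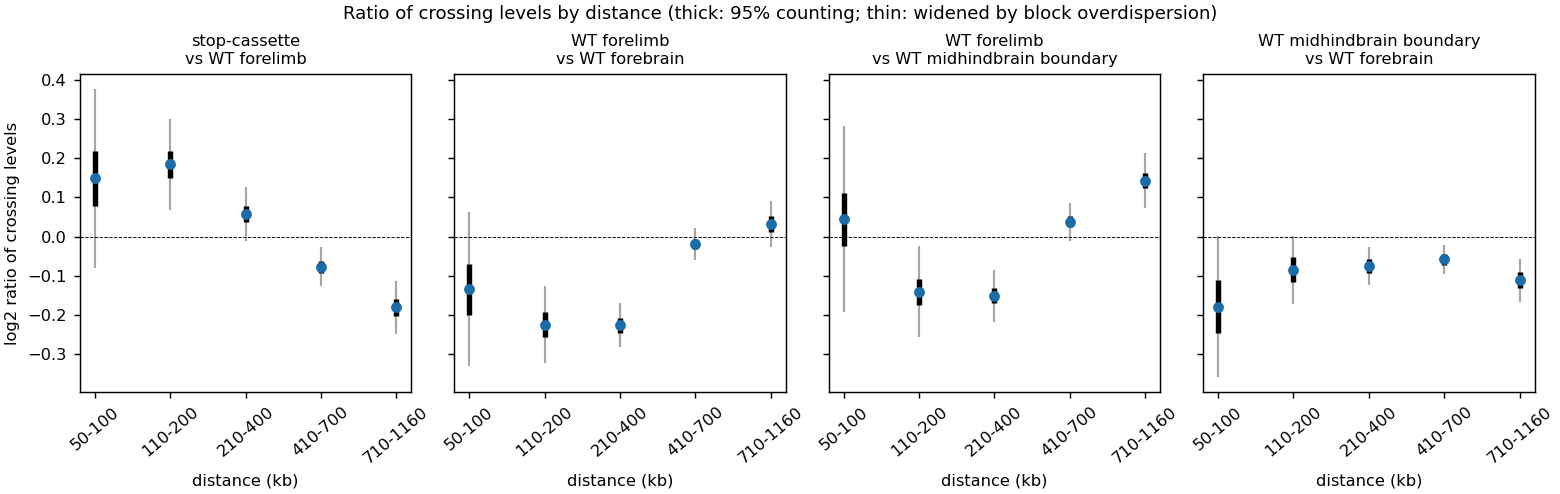
Log2 ratio of crossing levels (y axis) by distance between the bins in kb (x axis, 5 bands) for 4 comparisons of maps, thick bars as 95% counting intervals and thin bars as the wider interval from the overdispersion of 50 kb blocks. Stop-cassette over wild-type forelimb goes from 0.18 down to -0.18, wild-type forelimb over either brain map is lowest at 110 to 400 kb and higher at 410 kb and beyond, and midhindbrain boundary over forebrain lies below 0 throughout.

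The 4 comparisons of maps share maps among themselves, 3 of them the wild-type forelimb map, and their values are given side by side for that reason. The ratio up to 400 kb less that from 710 kb was 0.27 for mutant over wild-type forelimb. It was -0.25 for wild-type forelimb over forebrain and -0.28 over midhindbrain boundary. Between the brain maps, without the wild-type forelimb map, it was 0.028. The source of this pattern was not tested. Against forebrain, wild-type forelimb had fewer crossing contacts at short range. The log2 ratio, forelimb over forebrain, was -0.22 (wider interval -0.32 to -0.13) at 110 to 200 kb and -0.23 (-0.28 to -0.17) at 210 to 400 kb. At 50 to 100 kb it was -0.13, with a counting interval of -0.20 to -0.069 and a wider interval that holds 0. At 410 to 700 kb the ratio was -0.019 and at 710 to 1160 kb it was 0.032, both with 0 inside the wider interval. These means join unlike positions, since the cell of the innermost left and outermost En1-side bins was higher in forelimb, with 0.14 (wider interval 0.073 to 0.22), and the middle cell lower, with -0.14 (-0.23 to -0.049). On raw counts the ratio at 410 to 700 kb was 0.049. Over all distances the ratio was -0.063 (counting interval -0.072 to -0.054), and -0.020 on raw counts over their own distance mean. Short range fell below long range by a log2 difference of -0.25 (wider interval -0.33 to -0.18).

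Against midhindbrain boundary, the ratios of wild-type forelimb were -0.14 (wider interval -0.26 to -0.024) at 110 to 200 kb, -0.15 (-0.22 to -0.084) at 210 to 400 kb, 0.038 (-0.010 to 0.087) at 410 to 700 kb and 0.14 (0.074 to 0.21) at 710 to 1160 kb. The opposite shifts cancelled over all distances, where the ratio was 0.011 (counting interval 0.0020 to 0.021, wider interval -0.021 to 0.044), with 0.056 on raw counts and -0.086 over 50 to 550 kb alone. At 50 to 100 kb it was 0.045, with 0 inside the counting interval. The short-range ratio lay 0.28 below the long-range one (-0.28, wider interval -0.37 to -0.19). The neighbouring rectangles had ratios of -0.14 on the right and 0.13 on the left at 710 to 1160 kb. The crossing pairs differed from the right one by 0.28 (wider interval 0.18 to 0.39) and from the left one by 0.0081, with 0 inside the interval (-0.10 to 0.12). At 210 to 400 kb they lay below the right one by a difference of -0.11 (-0.20 to -0.018) and below the left one by -0.17 (-0.27 to -0.067).

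Along the En1 side, the levels of bins with the whole left side, at all distances, set both forelimb maps apart from both brain maps only in part. In the first 10 bins of the En1 side the levels of wild-type forelimb and midhindbrain boundary were alike, at 0.525 and 0.523. Mutant forelimb and forebrain were alike there too, at 0.572 and 0.571. In the next 10, 122610001 to 122710000, forelimb had 0.584 and mutant forelimb 0.598, against 0.695 in forebrain and 0.689 in midhindbrain boundary. Over 122710001 to 122810000 they had 0.710 and 0.656, against 0.772 and 0.762. From 122810001 outward the forelimb and brain maps interleaved. Over 122810001 to 122910000, for example, the levels were 0.877 and 0.811 in the forelimb maps and 0.889 and 0.831 in the brain maps. The bin 122630001 to 122640000 had the lowest ratio of the En1 side in both comparisons, -0.34 against forebrain and -0.31 against midhindbrain boundary. At 210 to 400 kb, the ratio of forelimb over forebrain was 0.27 below that of the right rectangle (-0.27, wider interval -0.35 to -0.19) and 0.23 below that of the left one (-0.23, -0.32 to -0.15).

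Between the brain maps, which come from the same library series, midhindbrain boundary had fewer crossing contacts than forebrain in all 5 distance bands. The log2 ratio was -0.075 over all distances (counting interval -0.084 to -0.065, wider interval -0.099 to -0.050), but turned to 0.078 (0.065 to 0.090) with the expectation from bin pairs inside the flanking intervals up to 550 kb. It was -0.18, -0.084, -0.075, -0.057 and -0.11 from the shortest to the longest band, and the wider interval left out 0 in the last 3. Short and long range did not differ beyond error, with a difference of 0.028 (wider interval -0.041 to 0.096). The ratio was lower than that of the right rectangle, which was 0.14, by a difference of -0.21 (-0.25 to -0.18), while the difference from the left rectangle, -0.036, had 0 inside its wider interval (-0.073 to 0.0018).

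Few single bin pairs differed between maps. Each underwent a binomial test (exact, two-sided) on raw counts, given the distance and the KR factors. Benjamini-Hochberg adjustment ran over all bin pairs 30 to 1160 kb apart with at least 20 contacts over both maps together. A pair was called where the adjusted p was below 0.05 and the difference reached 2-fold. In the comparison of the 2 forelimb maps 0 of 3151 crossing pairs were called, against 0.0276% of all pairs tested. At an unadjusted p under 0.05, 102 (3.24%) were higher and 181 (5.74%) lower in mutant forelimb, against 5.03% and 4.04% of all pairs tested. Between midhindbrain boundary and forebrain 0 of 3150 were called (background 0.0126%), with 35 (1.11%) higher and 170 (5.40%) lower in midhindbrain boundary at an unadjusted p under 0.05, against 3.51% and 3.57% of all pairs.

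Between wild-type forelimb and forebrain 1 of 3160 crossing pairs was called, against a background of 0.0176%. It joined 122230001 with 122520001 and had 44 contacts in wild-type forelimb, 54 in mutant forelimb, 93 in forebrain and 44 in midhindbrain boundary. Forebrain was alone in exceeding the mean of the distance there, with 1.16 times, against 0.552, 0.840 and 0.581 in wild-type forelimb, mutant forelimb and midhindbrain boundary. The log2 ratio of forelimb over forebrain was -1.07 (exact binomial test, adjusted p = 0.020).

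Between wild-type forelimb and midhindbrain boundary 4 of 3157 were called, against a background of 0.0527%. The pair of 122420001 with 122630001, 210 kb apart, was lower in forelimb, with 64 contacts in wild-type forelimb, 70 in mutant forelimb, 120 in forebrain and 125 in midhindbrain boundary (log2 ratio -1.04, exact binomial test, adjusted p = 0.0021). The other 3 were higher in forelimb and lay at longer range. The pair of 122270001 with 123050001, 780 kb apart, had 78, 53, 43 and 25 contacts in the same order of maps (log2 ratio 1.55, exact binomial test, adjusted p = 0.0010). The pairs of 122380001 with 122980001 and of 122280001 with 122840001 had log2 ratios of 1.23 and 1.13. With the variance of the test widened by the overdispersion of bin pairs none of the calls remained. No bin pair of the whole maps was called with it either, in any of the 4 comparisons.

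Summing 5 by 5 bins into 50 kb blocks raised the counts per test, and 100 blocks hold crossing pairs alone. With the same exact binomial test and a threshold of at least 1.2-fold, 13 of them were lower and 0 higher in the mutant map. Over all blocks of the map 3.86% were called lower and 11.2% higher (15.1% together). At an unadjusted p under 0.05, 51 of the 100 were lower and 10 higher, against 24.8% and 32.4% of all blocks. All 13 joined bins at least 400 kb apart, and 9 of them bins at least 700 kb apart. The lowest joined 122150001 to 122200000 with 122800001 to 122850000 and had 1170 contacts and a level of 0.861 in wild-type forelimb, 690 and 0.635 in mutant forelimb, 1152 and 0.958 in forebrain and 1064 and 0.898 in midhindbrain boundary. Its log2 ratio was -0.43 (exact binomial test, adjusted p = 6.0e-09), and mutant forelimb was the lowest of the 4 maps there.

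Between wild-type forelimb and forebrain, 15 crossing blocks were called lower in forelimb and 1 higher, against 2.42% and 2.78% of all blocks (5.19% in either direction). All 15 blocks under 400 kb apart had a ratio below 0, and 8 of them were called lower. The other 7 blocks called lower lay at 400 to 700 kb, where 31 of 49 blocks had a ratio below 0, down to -0.31. The lowest joined 122300001 to 122350000 with 122600001 to 122650000, where the level was 0.462 in wild-type forelimb, 0.523 in mutant forelimb, 0.623 in forebrain and 0.591 in midhindbrain boundary (log2 ratio -0.42, exact binomial test, adjusted p = 4.3e-22). Both blocks of the same En1-side bins with the next left bins towards the edge followed, with ratios of -0.40 and -0.37. The block called higher joined 122000001 to 122050000 with 122700001 to 122750000, with a level of 0.744 in forelimb and 0.608 in forebrain.

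Between wild-type forelimb and midhindbrain boundary, 7 crossing blocks were called lower in forelimb and 3 higher, against 4.89% and 6.4% of all blocks (11.3% together), so that their share lay near the background. The lowest joined 122400001 to 122450000 with 122600001 to 122650000, with 3075 contacts and a level of 0.457 in wild-type forelimb, 2379 and 0.513 in mutant forelimb, 3764 and 0.595 in forebrain and 3974 and 0.634 in midhindbrain boundary. Its log2 ratio was -0.46 (exact binomial test, adjusted p = 1.8e-37), and both forelimb maps lay below both brain maps. The 3 called higher joined left blocks that begin 20 to 170 kb from the edge with En1-side bins 480 kb or more from it, with log2 ratios of 0.32, 0.29 and 0.27. Between midhindbrain boundary and forebrain, 3 blocks were called lower and 0 higher, against 2.36% lower, 2.36% higher and thus 4.71% of all blocks, with log2 ratios of -0.30, -0.30 and -0.29. With the variance widened by the overdispersion of blocks, the number of crossing blocks called was 0 between the forelimb maps, 0 between wild-type forelimb and forebrain, 2 between wild-type forelimb and midhindbrain boundary, and 0 between the brain maps. Over all 1656 blocks it was 0, 3, 12 and 13 in that order.

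**Figure D5:**
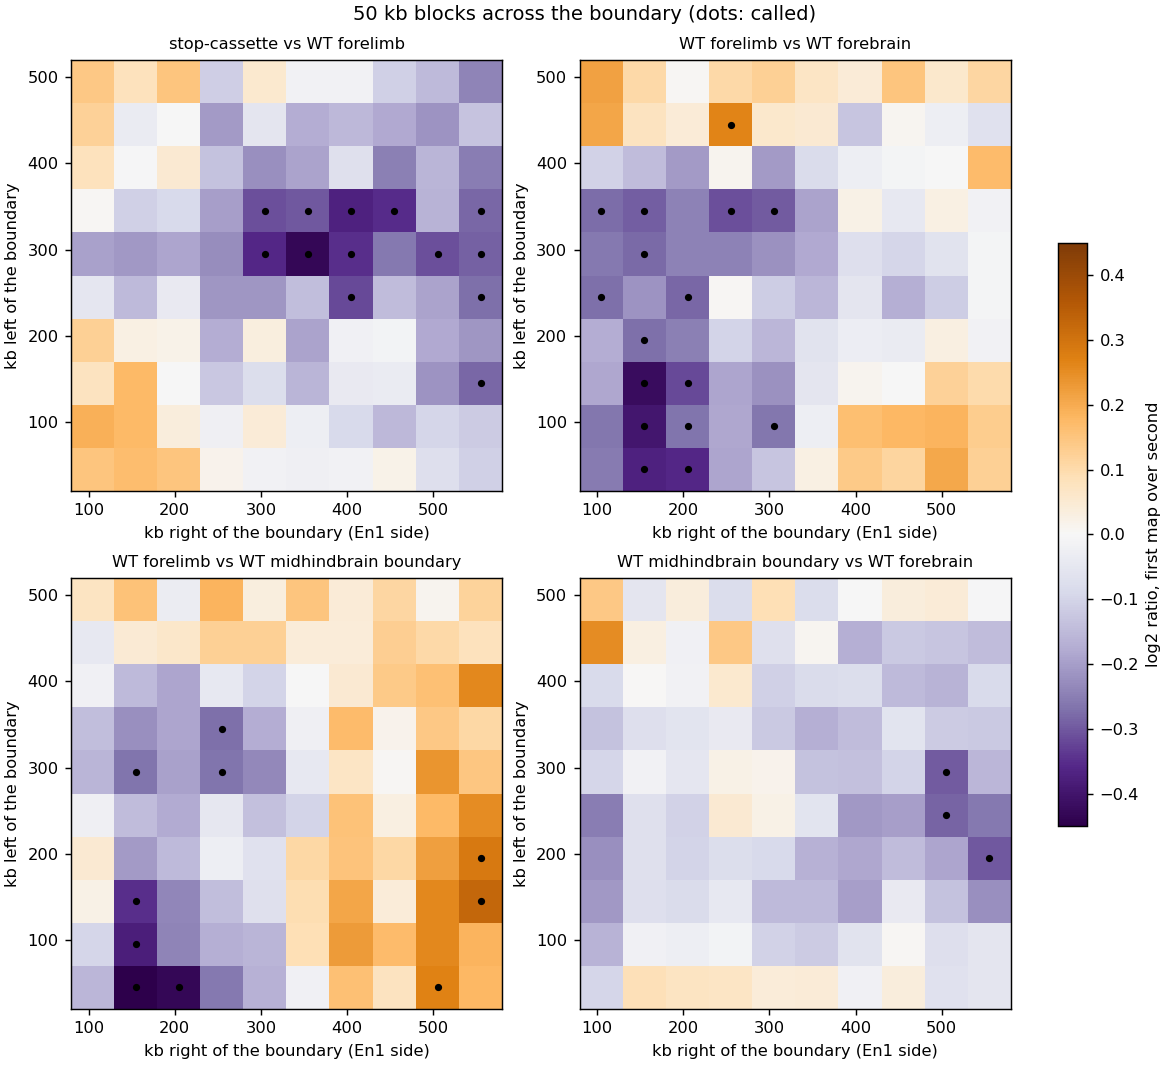
Log2 ratio of the first map over the second in the 100 blocks of 50 kb that hold crossing pairs alone, with kb from the edge on the En1 side (x axis) and on the left side (y axis), purple below and orange above 0, and a dot in each called block. Of the called blocks of stop-cassette against wild-type forelimb, 4 lie at 400 to 700 kb and 9 at 700 kb or more. Of the 16 of wild-type forelimb against forebrain, 8 lie under 400 kb, 7 at 400 to 700 kb and 1 farther.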

How the data were processed

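Per the labels, the authors merged the libraries of each group into 1 map. As deposited, a raw map lists whole-number counts of contacts between 10 kb bins, and the deposited balanced maps hold a KR contact signal. Their summed counts per map give the depth, and the submitters' processing notes name mm9, Bowtie2 2.3.4.1 and Juicer 1.7.6, without the role of each. In all 4 maps the signal was checked to be the raw count over the product of 2 bin factors. KR balancing gives all 420 bins of a map equal coverage, so a gain or loss of contacts by a whole bin is removed.

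The crossing level, its Poisson counting SD with the KR factors held, and the 95% intervals were computed in numpy 2.4.6 and scipy 1.17.1 under Python 3.11.15. Log2 ratios of single pairs and blocks used a prior count of 0.5. Bin pairs were tested from 30 kb and blocks from 50 kb up to 1160 kb. Scripts were tested on simulated data. Other settings changed the expectation, distances, bins, thresholds and variance. A dispersion could not be estimated from merged maps.

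The members, position classes and tests were chosen with earlier results of these data known. The named bin pairs are the 5 highest and 3 lowest by mean over the maps, among the 2807 with at least 20 contacts in each map, and those called. The named bins are the 3 highest and 3 lowest per side, and the named blocks up to 3 per direction. Bins named for the extreme ratio of a comparison or for a low level in a single map, the 12 corner pairs and the runs of 10 bins were chosen after their values were seen.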

Additional observations from a re-analysis of the deposited data

How the results depend on the processing

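No paired analysis was possible because the libraries of a group were merged into 1 map, and for the same reason no library could be left out. The overall crossing ratio rests on the distances and the expectation chosen. For mutant over wild-type forelimb it turned to 0.0341 with distances of 50 to 550 kb alone, and to 0.0995 when the expectation came from bin pairs inside both flanking intervals over those distances. With that expectation up to 400 kb, an alternative added after seeing the data, it was 0.142. For wild-type forelimb over midhindbrain boundary the same settings gave -0.0859, -0.140 and -0.192. The ratio of midhindbrain boundary over forebrain turned to 0.0776 with the expectation from inside the flanking intervals to 550 kb. There, 35 inside pairs at 510 to 550 kb set the expectation for 245 crossing pairs. With that expectation up to 400 kb it kept its direction, at -0.0347. The cause of these turns was not tested. Wild-type forelimb over midhindbrain boundary lost its call without thinly covered bins (0.0050) and with either widened variance (0.0113). In the remaining 34 alternatives of the crossing ratios, direction and call were kept.

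Called crossing bin pairs numbered 8, 2, 8 and 2 without KR factors, in the order of mutant against wild-type forelimb, forelimb against forebrain, forelimb against midhindbrain boundary, and the brain maps against each other, of 90, 17, 41 and 11 called over the whole maps. At 1.5-fold they numbered 16 of 47, 27 of 120 and 2 of 38 in the last 3 comparisons. With widened variance the calls of forelimb against either brain map went to 0, as did those over the whole maps. With bins joined to 20 kb the crossing calls also went to 0. Over the whole maps 9 were then called against forebrain and 4 against midhindbrain boundary. Called blocks went from 13, 16, 10 and 3 to 0, 0, 2 and 0 (of 0, 3, 12 and 13) with widened variance. At 1.5-fold they went to 0 in all (of 6, 3, 0 and 0). Those of mutant against wild-type forelimb went to 8 of 337 without KR factors.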
